A study of Homo sapiens with 4 samples.

Results

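The genes described here are 39 genes of protein folding, translocation and degradation in the endoplasmic reticulum (ER), taken by gene symbol from a table of 42169 genes. They hold 5 chaperones, 6 disulfide isomerase relatives, 5 co-chaperones or secreted stress proteins, 6 stress sensors and regulators, 7 genes of ER-associated degradation (ERAD) and 10 genes of the translocon and of targeting to it. Total RNA was sequenced from Huh7 cells, a line from a human liver tumour, after depletion of ribosomal RNA. Clone 1 served as the control and was labelled WT, and clone 18 (called DKO) lacked TTP and BRF1, the products of ZFP36 and ZFP36L1, which bind AU-rich elements in mRNA and speed its decay. Cells of both clones had been kept in DMSO for 3 h and had then received actinomycin D, a blocker of transcription, at 5 µg/ml for 10 min. Each clone gave 2 libraries. Each genotype was thus 1 clone, and an effect of the knockout and a difference between clones cannot be told apart.

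Proteins that enter the secretory pathway are led to the ER by the signal recognition particle and its receptor, and pass the membrane through the Sec61 channel. In the lumen they are folded by Hsp70 and Hsp90 type chaperones, by the lectins calnexin and calreticulin and by disulfide isomerases. Proteins that fail to fold are drawn back to the cytosol by ERAD and degraded. The unfolded protein response senses misfolded protein through IRE1, PERK and ATF6, and raises these genes through the transcription factors XBP1, ATF6 and ATF4. Hepatocytes secrete most plasma proteins and are rich in this machinery.

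Few of the ER genes passed the test for a difference between the clones. Of the 39 genes, 38 had enough counts to be tested, 1 rose in DKO, 0 fell and 37 did not pass an edgeR quasi-likelihood test at an adjusted p under 0.05. DERL3 had 0 counts in all 4 libraries, where a count of 3 would correspond to between 0.183 and 0.310 CPM (counts scaled to the same total of 1000000 on genes in each library), so a level below this was not detectable. In the annotation, 2923 of its 3796 exon bases are shared with SMARCB1 on the opposite strand. The strand setting of the counting is not known, so the level of DERL3 is uncertain above this floor too. Among all 13359 genes tested, 2.24% rose, 3.14% fell and 5.37% passed in either direction. Thus 1 of 38 was no more than the 5.37% for either direction. A single gene is too few to set against the 2.24% that rose. The gene that rose was SEC61B, which encodes the beta subunit of the Sec61 channel. The median log2 fold change of DKO over control was 0.12 over the 38 genes and 0.0015 over all genes tested, and 24 of the 38 values were positive, against 6699 of 13359. Directions are relative to the bulk of genes: with totals of the ERCC spike-ins as library sizes, the median was -0.55 over the 38 genes and -0.68 over all genes. Of the 15 positive values among the 20 genes named by rule, 14 were then negative, and that of SEC61B stayed positive. Spike-ins made up 1.467% and 0.946% of counts in control and 1.619% and 2.097% in DKO, so the control libraries also differed from each other. What this spread adds to the shift was not tested. At an unadjusted edgeR p under 0.05, 5 of the genes were higher and 1 was lower, with 9.57% and 10.6% of all genes in these classes. Libraries of the clones did not overlap in CPM for 19 of the 38 genes (13 above and 6 below control), and for 49.9% of all genes (23.7% above and 26.2% below). With 2 libraries against 2, the smallest exact permutation p for a single gene is 0.333 (2-sided), so the tests draw on an estimate of spread that edgeR takes from the whole table.

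**Figure D1:**
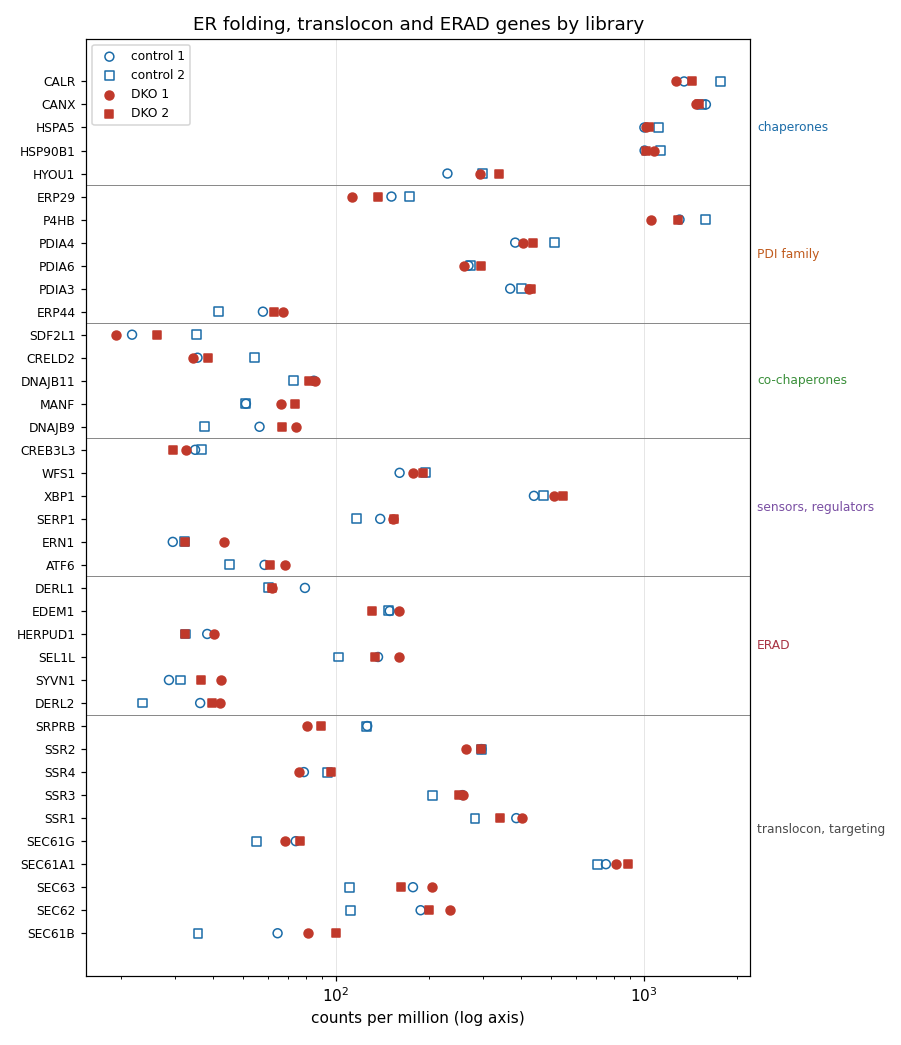
CPM (log axis) of the 38 tested genes in each of the 4 libraries, ordered by role; open symbols are control and filled symbols DKO libraries. CALR, CANX, HSPA5, HSP90B1 and P4HB are the highest in every library, and the SEC61B point of control library 2 lies apart at 35.7 CPM.

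Total counts on genes ran from 9685798 to 16430228 per library. ZFP36 mRNA had 30.0 and 23.3 CPM in control and 37.5 and 36.2 CPM in DKO. ZFP36L1 mRNA had 135 and 109 CPM in control and 147 and 118 CPM in DKO, and neither mRNA passed the test (edgeR adjusted p = 0.207 and 0.775). No source used here states the kind of mutation, so these levels do not check the genotype. PPP1R15A, the gene in the title of the series, had 65.3 and 92.3 CPM in control and 109.7 and 147 CPM in DKO and did not pass (0.71, edgeR adjusted p = 0.0851). All 10 hepatocyte and hepatoma markers were detected, with summed levels between 25915 and 29240 CPM. Of the markers of other cells, VWF, CDH5 and KDR of endothelium and CD3E of lymphocytes were at 0 in all libraries. The 5 immune markers, led by LYZ, summed to between 75.6 and 77.5 CPM in control and between 109 and 125 CPM in DKO, and the 6 fibroblast markers, led by COL1A2, to between 95.5 and 143 CPM in all libraries. Their part in the results was not tested. The share of counts on mitochondrial genes was 2.53% and 0.448% in control and 3.59% and 1.16% in DKO.

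Many promoters of these genes carry the ER stress response element, the sequence by which ATF6 and XBP1 act together with the factor NF-Y. The element (ERSE) was searched as CCAAT, 9 bases of any kind and CCACG, and its variant ERSE-II as ATTGG, 1 base of any kind and CCACG, on both strands in RefSeq promoter windows (GRCh38.p14) of 250 bases before to 50 bases after each start site. No matches shown here overlap each other. Of the 39 genes, 36 had a window (PDIA3, DERL1 and DERL3 did not), 8 of them held the full element and 3 the variant. Among the 27305 genes with a window, the full element was found for 25 genes (0.0916%) and the variant for 19 (0.0696%), and 8 of these 25 and 3 of these 19 are ER genes described here. The elements are shown because these are the letters through which the unfolded protein response is known to act. Capitals mark the fixed letters of the motif, in the direction in which it reads, with 5 bases on either side. The full elements were as follows, for HSP90B1 the nearer to the start site of 2.
HSPA5, chr9:125241386-125241414, minus strand: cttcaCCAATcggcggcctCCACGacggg
HSP90B1, chr12:103930316-103930344, minus strand: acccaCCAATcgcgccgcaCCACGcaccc
CALR, chr19:12938379-12938407, minus strand: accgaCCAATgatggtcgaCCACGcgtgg
CANX, chr5:179698773-179698801, plus strand: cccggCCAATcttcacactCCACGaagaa
PDIA6, chr2:10812848-10812876, minus strand: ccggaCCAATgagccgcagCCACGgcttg
CRELD2, chr22:49918549-49918577, minus strand: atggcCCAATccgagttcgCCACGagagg
XBP1, chr22:28800598-28800626, minus strand: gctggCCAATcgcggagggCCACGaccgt
SERP1, chr3:150546705-150546733, plus strand: aaacaCCAATtcgctgtctCCACGcatga
The matches to the variant were as follows.
HYOU1, chr11:119057269-119057289, plus strand: tactcATTGGaCCACGtccca
HYOU1, chr11:119057375-119057395, plus strand: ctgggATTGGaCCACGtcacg
SDF2L1, chr22:21642109-21642129, minus strand: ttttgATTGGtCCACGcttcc
HERPUD1, chr16:56932020-56932040, plus strand: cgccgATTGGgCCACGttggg

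The genes with either element had values on both sides of 0. Of these 11 genes, 0 passed the test, 5 had positive and 6 negative values, and the median log2 fold change was -0.02. Of the 25 genes with a window and neither element, 1 rose, 18 had positive values and the median was 0.19. A match is a description of these letters and does not show that a factor bound there.

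The chaperones, which bind unfolded chains, were among the most abundant of the mRNAs and did not pass the test in either direction. HSPA5, the Hsp70 of the ER known as BiP and the usual readout of ER stress, had 1002 and 1111 CPM in control and 1016 and 1040.5 CPM in DKO. Both DKO values lay between the control values, and the log2 fold change was -0.03 (95% interval -0.50 to 0.44). HSP90B1, the Hsp90 of the ER known as GRP94, had 1004 and 1129 CPM in control and 1075 and 1016 CPM in DKO, with a log2 fold change of -0.02 (95% interval -0.49 to 0.45). The interval of each therefore leaves room for a difference of up to about 0.50 on the log2 scale in either direction.

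The lectin chaperones hold glycoproteins while they fold. CALR, which encodes calreticulin, had 1348 and 1766 CPM in control and 1270 and 1428 CPM in DKO. CANX, which encodes calnexin, had 1587 and 1534 CPM in control and 1474 and 1510 CPM in DKO. The DKO libraries lay below the control libraries for CANX and overlapped them for CALR, with log2 fold changes of -0.05 and -0.20. The 50 neighbours of CANX had a median of -0.30, with 7 of 50 positive. HYOU1, a large Hsp70 relative that recharges BiP with ATP, had 230 and 298 CPM in control and 293 and 339 CPM in DKO. Its log2 fold change of 0.27 (edgeR adjusted p = 0.518) was the only positive value of the 5 chaperones. It was 0.058 without control replicate 1, 0.49 without control replicate 2 and 0.41 with GC and length trends removed. Without control replicate 2, CALR, HSPA5 and HSP90B1 had positive values too (0.038, 0.073 and 0.094). HYOU1 lies on chromosome 11 (119044189 to 119057202, hg38), and the 50 tested genes nearest to it had a median log2 fold change of 0.51, with 45 of 50 positive, so that its value lay below that of its neighbourhood. What the neighbourhood adds to the value was not tested.

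**Figure D2:**
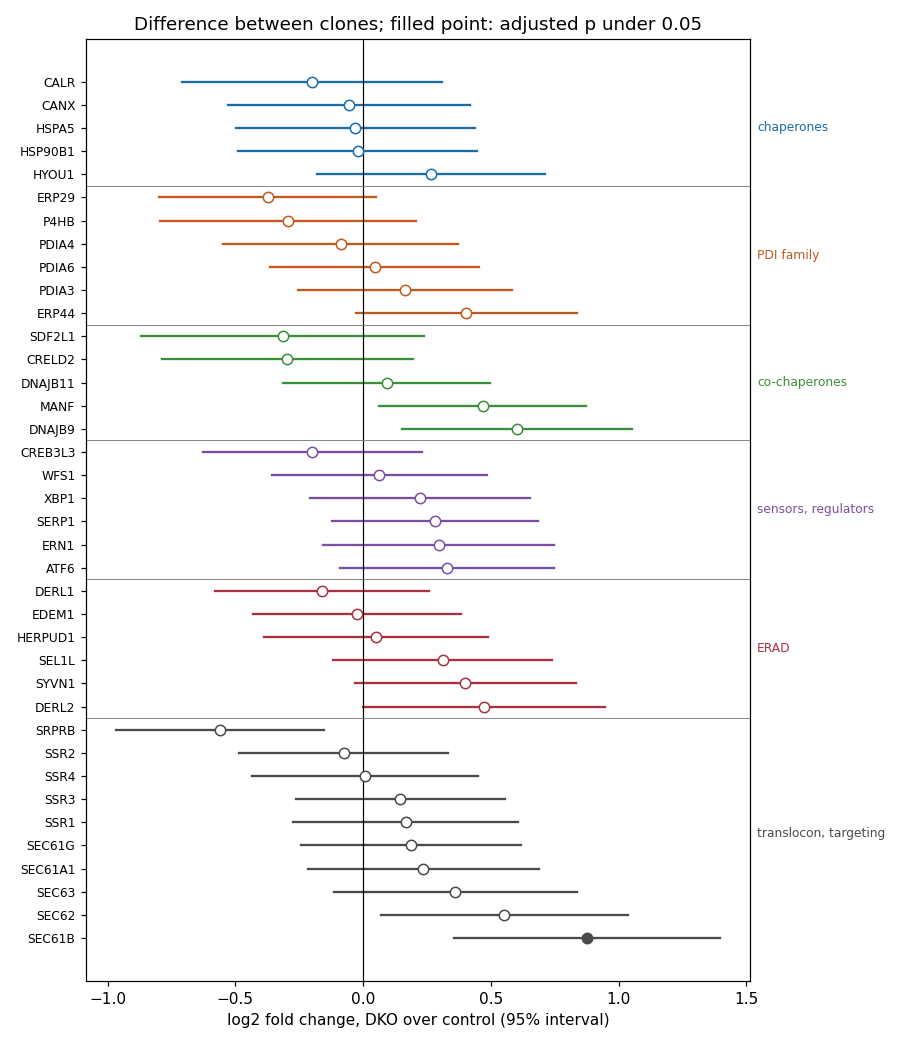
Log2 fold change of DKO over control for the 38 tested genes with 95% intervals, grouped by role; a filled point has an adjusted p under 0.05. SEC61B is the only filled point (0.88), and the intervals of SEC62, DNAJB9, MANF, DERL2 and SRPRB also leave out 0 before adjustment.

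The disulfide isomerase family, which forms and rearranges disulfide bonds, moved in no common direction: 3 of 6 values were positive, 0 passed, and the median was -0.02. ERP29, a relative without the redox site that helps secretory proteins along, had 151 and 174 CPM in control and 113 and 136 CPM in DKO. ERP44, which retrieves unassembled proteins from the Golgi by a thiol bond, had 57.9 and 41.6 CPM in control and 67.5 and 62.8 CPM in DKO. The libraries of the clones were apart for both genes, in opposite directions, and neither passed (log2 fold changes -0.37 and 0.40, edgeR adjusted p = 0.314 and 0.277). The major isomerase P4HB had 1303 and 1583 CPM in control and 1053 and 1286 CPM in DKO, a log2 fold change of -0.29. Its 50 neighbours had a median of -0.33. PDIA3, the partner of calnexin and calreticulin, had 368 and 399 CPM in control and 423 and 430 CPM in DKO. PDIA4 and PDIA6 overlapped between the clones, at -0.09 and 0.05, and without control replicate 2 PDIA4 was at 0.17.

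Among the co-chaperones and secreted stress proteins, DNAJB9 and MANF were the highest and SDF2L1 and CRELD2 the lowest in DKO relative to control, and 0 of 5 passed. DNAJB9, the J protein ERdj4 that restrains IRE1 through BiP, had 56.5 and 37.5 CPM in control and 73.9 and 66.9 CPM in DKO. MANF, a secreted protein released under ER stress, had 51.0 and 51.0 CPM in control and 66.5 and 73.4 CPM in DKO. For these 2 genes each DKO library was higher than either control library. The log2 fold changes were 0.60 for DNAJB9 (SE 0.21, edgeR adjusted p = 0.117) and 0.47 for MANF (SE 0.19, edgeR adjusted p = 0.179). SDF2L1, which forms a complex with the J protein DNAJB11 (ERdj3), had 21.8 and 35.2 CPM in control and 19.4 and 26.2 CPM in DKO. CRELD2, another secreted ER stress protein, had 35.5 and 54.2 CPM in control and 34.4 and 38.5 CPM in DKO. Libraries of the clones overlapped for SDF2L1, CRELD2 and DNAJB11, with log2 fold changes of -0.32, -0.30 and 0.09. Without control replicate 2 the values of SDF2L1 and CRELD2 were 0.11 and 0.075.

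The sensors and regulators had 5 positive values of 6, 0 passed, and the median was 0.25. XBP1, the transcription factor whose mRNA IRE1 splices, had 439 and 471 CPM in control and 510 and 545 CPM in DKO, a log2 fold change of 0.22 (95% interval -0.21 to 0.65), which was 0.054 with GC and length trends removed. Counts per gene do not separate its spliced from its unspliced form. ATF6, a membrane-bound factor that is cut in the Golgi, had 58.6 and 45.3 CPM in control and 68.2 and 61.1 CPM in DKO (0.33). ERN1, which encodes IRE1, had 29.5 and 32.1 CPM in control and 43.2 and 32.4 CPM in DKO (0.30). The clones did not overlap for XBP1, ATF6 and ERN1, although DKO replicate 2 nearly met control replicate 2 for ERN1. SERP1, a small protein that guards new membrane proteins, had 139 and 116 CPM in control and 154 CPM in both DKO libraries (0.28). CREB3L3, a factor of the ATF6 type in liver known as CREBH, was the only one of the 6 with a negative value, with 34.9 and 36.7 CPM in control and 32.5 and 29.6 CPM in DKO (-0.20). The edgeR adjusted p of these 5 genes lay between 0.374 for ATF6 and 0.632 for CREB3L3. With GC and length trends removed, ATF6 was at 0.31, ERN1 at 0.42, SERP1 at 0.24 and CREB3L3 at -0.17. WFS1, the membrane protein wolframin, overlapped between the clones (0.06, and 0.18 with GC and length trends removed). Its 50 neighbours had a median of -0.32. The DKO libraries lay above control for SERP1 as well, and below control for CREB3L3. Thus 4 of the 6 genes lay above and 1 below control, against 23.7% and 26.2% of all genes.

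Of the 6 ERAD genes tested, 4 had positive values, 0 passed and the median was 0.18. SEL1L and SYVN1 encode the scaffold and the ubiquitin ligase (HRD1) of one complex. SEL1L had 137 and 102 CPM in control and 160.3 and 134 CPM in DKO, which overlapped (0.31). SYVN1 had 28.7 and 31.3 CPM in control and 42.4 and 36.5 CPM in DKO, which did not (0.40, edgeR adjusted p = 0.286). SYVN1 shares exon bases in the annotation with FAU on the same strand, so that its counts are uncertain. DERL2, a channel-like partner of the ligase, had 36.2 and 23.5 CPM in control and 42.2 and 39.7 CPM in DKO (0.47, edgeR adjusted p = 0.247), and its value was 0.21 without control replicate 2 and 0.77 without control replicate 1. Its paralogue DERL1 was at -0.16, and the 50 neighbours of DERL1 had a median of -0.50, with 3 of 50 positive. HERPUD1, a membrane adaptor that ER stress induces strongly, had 38.2 and 32.4 CPM in control and 40.2 and 32.4 CPM in DKO, a log2 fold change of 0.05 (95% interval -0.39 to 0.49). EDEM1, which trims mannose from misfolded glycoproteins, overlapped as well (-0.02), and its 50 neighbours had a median of -0.31.

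SEC61B, on chromosome 9 (99222064 to 99230615, hg38), was the gene that passed. It had 64.6 and 35.7 CPM in control and 81.3 and 99.7 CPM in DKO, so that both DKO libraries were higher than both control libraries, and control replicate 2 was the lowest. The log2 fold change was 0.88 (SE 0.24, 95% interval 0.36 to 1.40, edgeR adjusted p = 0.0491), a 1.84-fold difference. Its 50 neighbours had a median of -0.01. The call was lost without control replicate 2 (0.52, edgeR adjusted p = 0.219), without DKO replicate 1 (1.04, edgeR adjusted p = 0.0707) and without DKO replicate 2 (0.70, edgeR adjusted p = 0.397), and without control replicate 1 the value was 1.32 (edgeR adjusted p = 8.48e-06). With ERCC totals it was 0.25 and did not pass (edgeR adjusted p = 0.724).

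The other subunits of the Sec61 channel did not pass. SEC61A1, the pore itself, had 752 and 705 CPM in control and 811 and 890 CPM in DKO (0.24). SEC61G had 74.0 and 55.1 CPM in control and 68.3 and 76.7 CPM in DKO (0.19). With GC and length trends removed the values were 0.29 for SEC61A1 and -0.096 for SEC61G. Per length of gene, the ratio of SEC61B to SEC61A1 within a library was 0.339 and 0.200 in control and 0.396 and 0.442 in DKO. The ratio of SEC61G to SEC61A1 was 0.251 and 0.199 in control and 0.215 and 0.2197 in DKO. The ratio was thus higher in both DKO libraries for SEC61B and overlapped for SEC61G. The exact permutation p for SEC61B over SEC61A1 was 0.333 (2-sided), the smallest that 2 against 2 libraries can give. This ratio rests on the same SEC61B counts as the call above and is not separate evidence for it. The pair was chosen with results of these data known. Of other pairs compared in this way, the ratios of SEC62 to SEC63 and of HYOU1 to HSPA5 were higher in both DKO libraries. That of ERP29 to ERP44 was lower in both. Each of these pairs had the same exact permutation p of 0.333 (2-sided), so their separation is not evidence of a difference. Those of SEL1L to SYVN1, SDF2L1 to DNAJB11 and of SSR1, SSR3 and SSR4 to SSR2 overlapped.

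SEC62 and SEC63 encode partners of the channel that act in translocation after synthesis. SEC62 had 188 and 112 CPM in control and 235 and 199.9 CPM in DKO (0.55, edgeR adjusted p = 0.181). SEC63 had 178 and 111 CPM in control and 204 and 162 CPM in DKO (0.36, edgeR adjusted p = 0.390). Without control replicate 2 the values were 0.24 for SEC62 and 0.077 for SEC63, and without control replicate 1 they were 0.93 and 0.70. Control replicate 2 was the lowest library for both, and the clones overlapped for SEC63. The TRAP complex, which assists some signal sequences at the channel, comprises SSR1, SSR2, SSR3 and SSR4, and their log2 fold changes were 0.17, -0.08, 0.15 and 0.0073. Libraries overlapped for SSR1, SSR3 and SSR4, and the DKO libraries lay below control for SSR2, by 295 against 296 CPM at the closest. The 50 neighbours of SSR2 had a median of -0.29, with 8 of 50 positive.

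SRPRB encodes the membrane-bound subunit of the signal recognition particle receptor and had the lowest value of all 38 genes. It had 126 CPM in both control libraries and 80.3 and 89.3 CPM in DKO, with no overlap, and its value of -0.56 (SE 0.19, log2 scale) did not pass (edgeR adjusted p = 0.105). The subunit that binds it, SRPRA, rose from 88.6 and 90.7 CPM to 148 and 169 CPM (0.83, edgeR adjusted p = 0.0213). Per length of gene, the ratio of SRPRB to SRPRA was 1.42 and 1.38 in control and 0.542 and 0.525 in DKO. The ratio was lower in both DKO libraries, the smallest permutation p that the design allows again being 0.333 (exact, 2-sided), and this pair was picked after its values were seen. Both genes lie among neighbours that differed in the same direction as they did. The 50 genes nearest to SRPRB on chromosome 3 (133784033 to 133825772, hg38) had a median of -0.32, with 9 of 50 positive, and the 50 nearest to SRPRA on chromosome 11 (126262919 to 126269144) a median of 0.54, with 44 of 50 positive. The part of the neighbourhood in either value was not tested. SRPRB also shares exon bases with the transferrin gene TF on the same strand, and SRPRA did not pass without either DKO library.

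**Figure D3:**
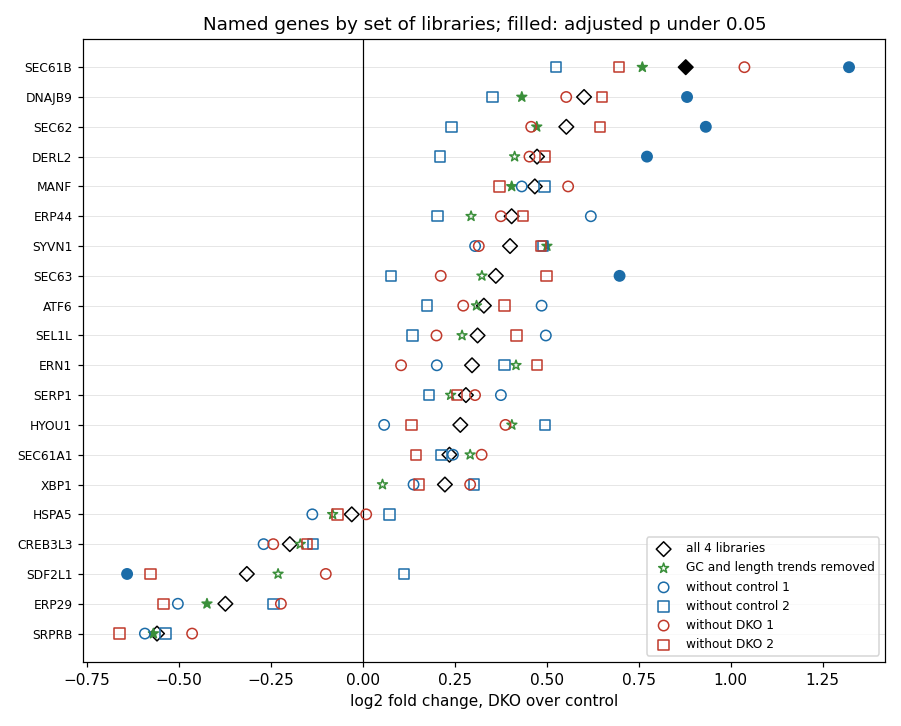
Log2 fold change of DKO over control for the 20 genes named by rule, from all 4 libraries, with GC and length trends removed, and with each library left out in turn; filled symbols have an adjusted p under 0.05. Values without control replicate 2 lie towards 0 and those without control replicate 1 away from it for SEC61B, DNAJB9, SEC62, DERL2 and SEC63.

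Levels of different genes were compared as counts per kilobase of exon, scaled to the same total in each library (written as TPM). In the control libraries CALR was highest, at 2128 ± 419 TPM (SD, n = 2), followed by P4HB (1009 ± 146), HSPA5 (1002 ± 80.6), CANX (928 ± 15.2) and HSP90B1 (842 ± 76.3). P4HB, HSPA5 and CANX did not differ beyond their spread. SEC61A1 (575 ± 21.6) and XBP1 (557 ± 32.1) came next and lay within each other's spread. The sensors ATF6 (24.4 ± 4.26) and ERN1 (10.5 ± 0.710) were near the bottom, with SYVN1 (20.2 ± 1.37) and DERL2 (17.3 ± 5.10). The same 5 genes were the most abundant in DKO, with CALR at 1747 ± 99.5 TPM and HSPA5 at 926 ± 8.70 TPM. Summed over the 39 genes, the share of all gene counts was 1.17% and 1.24% in control and 1.17% and 1.22% in DKO.

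The difference between libraries of 1 clone was as large as the difference between clones for many of these genes. The median absolute log2 ratio of replicate 2 to replicate 1 was 0.27 in control and 0.16 in DKO, and the median absolute difference between the clones was 0.23. Over all genes tested, the same 3 values were 0.30, 0.22 and 0.27. For 21 of the 38 genes the control pair differed by more than the clones did. The share of all genes for which this held was not counted. A pair ratio sets 1 library against 1 in CPM, without TMM factors. The difference between clones is a fit with TMM factors over 2 libraries per clone, so the measures are not alike. The control pair differed along the base composition of the transcripts. All 10 ER genes of lowest GC content (36.1% to 40.6%), SEC62, SEC63, DNAJB9, ERP44, DERL2 and SEL1L among them, were lower in control replicate 2, with a median log2 ratio of -0.46. Of the 10 of highest GC content (53.8% to 65.5%), such as SDF2L1, SSR4, CRELD2 and CALR, 1 was lower, with a median of 0.28.

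Across the 38 genes, GC content correlated with the log2 ratio of the control pair at Pearson's r = 0.737 (Spearman's rho = 0.770), with that of the DKO pair at 0.502 (0.509) and with the difference between clones at -0.405 (-0.463). Over 13132 genes with a known GC content the same correlations were 0.570 (0.658), 0.413 (0.491) and -0.196 (-0.254). These correlations are across genes of the same 4 libraries, and genes are not independent replicates. SEC61B, with a GC content of 48.8%, lay off this trend in the control pair, at -0.86. In a fit without the trends over GC content and length, 7 of the 38 genes passed (5 higher and 2 lower), against 15.4% of all genes (7.4% higher and 7.98% lower). SEC61B (0.76), SYVN1 (0.50), SEC62 (0.47), DNAJB9 (0.43) and MANF (0.40) were then higher in DKO and SRPRB (-0.57) and ERP29 (-0.42) lower, and the median of the 38 genes was 0.06. The largest edgeR adjusted p of these 7 was that of ERP29 (0.0453). Without control replicate 1, 6 of the 38 passed (5 higher and 1 lower), against 15.6% of all genes (7.4% higher and 8.24% lower). These were SEC61B, DNAJB9, SEC62, SEC63 and DERL2, which were higher, and SDF2L1, which was lower. Leaving out control replicate 2 gave 0 of the 38 against 5.35% of all genes. Leaving out DKO replicate 1 gave 0 of 38 against 1.68%, and leaving out DKO replicate 2 gave 0 of 38 against 1.61%. SEC61B was the only one of the 38 to pass with DESeq2 size factors, DESeq2, limma-voom and no filter on low counts, where 5.41%, 5.18%, 5.25% and 5.39% of all genes passed. With ERCC totals 0 of the 38 and 2.46% of all genes passed.

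**Figure D4:**
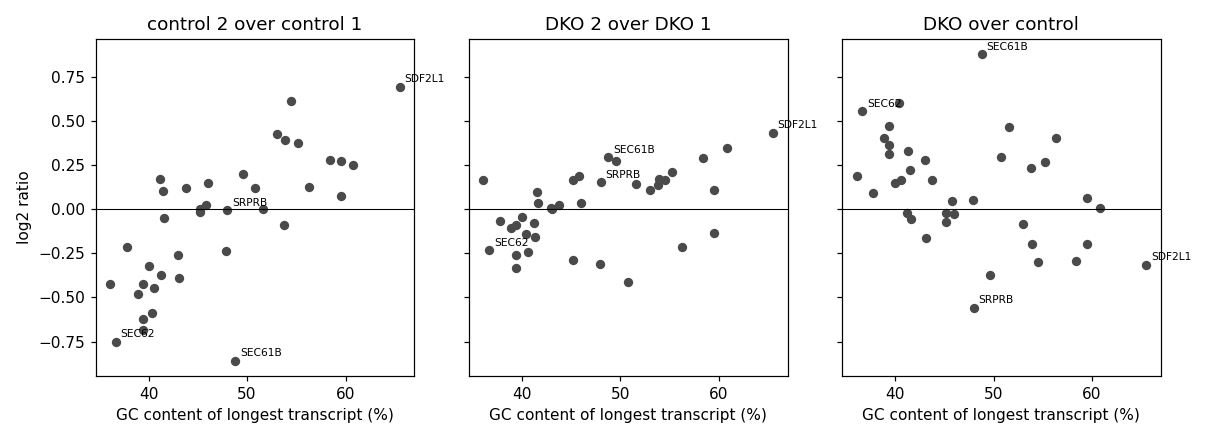
Log2 ratio of replicate 2 to replicate 1 in control, of replicate 2 to replicate 1 in DKO, and of DKO to control, each against the GC content of the longest transcript (percent), for the 38 tested genes. The control pair rises with GC content (r = 0.737), with SEC61B below the trend, and the difference between clones falls with it (r = -0.405).

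The ZFP36 family binds the sequence UAUUUAU in 3′ UTRs, written here as TATTTAT. It was searched on the sense strand in the longest annotated 3′ UTR of each gene (GENCODE 29). It was found in 11 of the 39 ER genes (28.2%), and in 36.1% of 11889 tested protein-coding genes. ERN1 had 3 matches close together, of which those at bases 4341 and 4347 overlap, and SSR3 had 2. Matches of ERN1 and of some further genes are shown because these are the letters that the deleted proteins are known to bind. Capitals mark only the match that starts at the stated base, and positions count from the base after the stop codon.
ERN1, base 4328 of 4846: aatgaccTATTTATttaacct
ERN1, base 4347 of 4846: ctatttaTATTTATttaattt
DNAJB9, base 1422 of 1497: tctgttaTATTTATgtaactt
ATF6, base 2993 of 5416: attttttTATTTATtaaattt
ERP44, base 1286 of 3433: aaattaaTATTTATaatggat
HYOU1, base 52 of 1404: ccacttcTATTTATttaacat
Of the 11 genes with a match, 0 passed, 9 had positive values and the median log2 fold change was 0.30. Of the 27 tested genes without one, 1 rose, 15 had positive values and the median was 0.05. Over all tested protein-coding genes the medians were 0.04 with a match and -0.03 without, and of the 4296 with a match 2356 had positive values, 90 rose and 120 fell. SEC61B had no match in its 3′ UTR of 191 bases. Of the 11 genes with a match, DNAJB9, DNAJB11, ERP44, SEL1L, SEC63 and SSR3 were also among the 10 of lowest GC content. With GC and length trends removed, DNAJB9 moved from 0.60 to 0.43, ERP44 from 0.40 to 0.29, SEL1L from 0.31 to 0.27, SEC63 from 0.36 to 0.32, SSR3 from 0.15 to 0.043 and DNAJB11 from 0.09 to -0.037. Among the other genes with a match, HYOU1 moved from 0.27 to 0.41 and ERN1 from 0.30 to 0.42 in that fit. ATF6 moved from 0.33 to 0.31, EDEM1 from -0.02 to -0.016 and DERL1 from -0.16 to -0.17. What GC content adds to these values was not tested.

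Other genes of the same pathway were taken from 6 lists with 115 genes in all, of which 112 were tested. Of these, 5 rose and 2 fell, against 2.24% and 3.14% of all genes (5.37% in either direction). Among genes of signal recognition, signal peptidase and other translocation steps, 16 of 17 values were positive, with a median log2 fold change of 0.37, and 1 (SRPRA) passed. Among subunits of the oligosaccharyltransferase and enzymes of glycan processing, 3 of 18 rose, 0 fell and 15 did not pass. These were the small subunits TMEM258 (71.0 and 52.5 CPM in control, 128 and 149.7 CPM in DKO, 1.19) and OST4 (52.3 and 45.2 CPM in control, 79.5 and 95.4 CPM in DKO, 0.86), and the catalytic subunit STT3A. STT3A had 177 and 118 CPM in control and 304 and 320.1 CPM in DKO (1.10), and it lies in the same stretch of chromosome 11 as SRPRA, with a neighbour median of 0.54.

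Among other isomerases and oxidative folding genes, TMX4, a membrane-bound thioredoxin, rose from 113 and 90.4 CPM to 231 and 212 CPM (1.14). The sulfhydryl oxidase QSOX1 fell from 66.8 and 105 CPM to 44.4 and 48.5 CPM (-0.88), and the isomerase PDIA5 from 51.2 and 60.4 CPM to 33.6 and 33.5 CPM (-0.73). The edgeR adjusted p of these 7 genes lay between 0.00352 for TMX4 and 0.0471 for PDIA5. With limma-voom, QSOX1 and PDIA5 did not pass (limma-voom adjusted p = 0.0505 and 0.0532), and the others of the 7 did. Without 1 library or another, 6 of the 7 lost their call. TMX4 passed in each of the 4 fits, and STT3A and TMEM258 did not pass without DKO replicate 2. OST4 did not pass without either DKO library, and QSOX1 and PDIA5 passed only in the fit without control replicate 1. None of 29 other ERAD genes (median 0.10), 17 genes of COPII vesicles (0.24) and 9 subunits of the ER membrane protein complex (-0.08) passed. At an unadjusted edgeR p under 0.05, 4, 2 and 1 of these were higher and 1, 0 and 1 lower, against 9.57% and 10.6% of all genes. In the remaining lists, 7 of 17 genes of signal recognition and translocation were higher and 0 lower. The counts were 6 higher and 2 lower of 22 oxidative folding genes, and 3 higher and 0 lower of 18 glycan genes. Over all 112 genes, 23 were higher and 4 lower. DKO libraries lay above control for 48 of the 112 and below for 11, against 23.7% and 26.2% of all genes. No list was tested as a set.

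**Figure D5:**
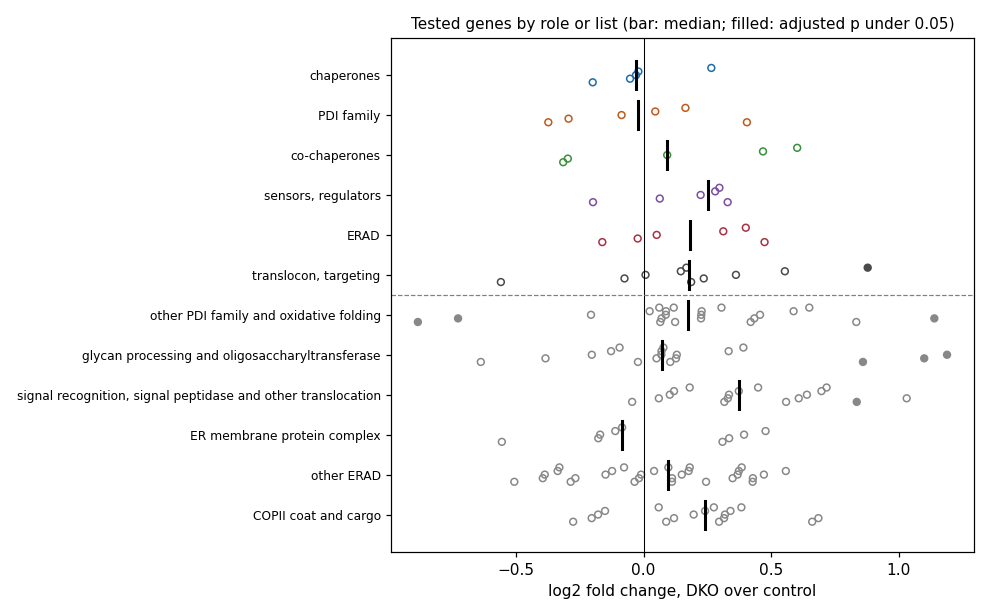
Log2 fold change of DKO over control for each tested gene, by role for the 38 ER genes (above the dashed line) and by list for 112 other genes of the secretory pathway; bars are medians and filled points have an adjusted p under 0.05. The highest list median is that of signal recognition and translocation (0.37), and the chaperones and the isomerase family lie near 0.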

How the data were processed

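The authors deposited whole-number read counts per gene for 4 libraries, not normalized. Tools named in the submitters' processing notes are DESeq2, featureCounts (Subread 1.6.3) and STAR 2.5.3a, with build hg38. No source used here names the annotation, the strand setting or the treatment of multi-mapping reads. Of the 39 genes, 23 share exon bases with another gene of the table (5 of them on the same strand), and their counts are uncertain.

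From these counts, 92 ERCC rows were left out and 13359 genes kept by filterByExpr were fitted in edgeR 4.0.16 (R 4.3.3) with TMM factors, the quasi-likelihood test and group as the only term. P-values were adjusted by Benjamini-Hochberg over all of them, with a threshold of 0.05. SE is the log2 fold change over the root of F, and 95% intervals use the fit's degrees of freedom. CPM are counts over the library total of genes. A count of 3 equals 0.183 to 0.310 CPM, and reads had no molecular identifiers. Positions, lengths and GC content are from GENCODE 29 (hg38), which matched 96.64% of gene rows. The test was also run on simulated counts. These were drawn gene by gene without differences along GC content, so they do not check the test against such differences.

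Libraries of a clone differed by more than sampling noise (chi-square per degree of freedom 24.2 in control and 19.7 in DKO). No label says that these came from separate cultures, and p-values measure only how libraries vary, which may be technical. Genes and lists were chosen with earlier results of these data known. Values in full are given for genes that passed in the main test or in an alternative, for the lowest p of each role, and for HSPA5, XBP1, ATF6, ERN1, SEC61B and CREB3L3. From each other list, up to 3 genes that passed are named, and also ZFP36, ZFP36L1 and PPP1R15A. Alternatives were DESeq2 1.42.0, its size factors, limma-voom (limma 3.58.1), ERCC totals, no filter, the replicate number as a block, removal of GC and length trends, and leaving out each library. One planned marker gene is not reported here.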

Additional observations from a re-analysis of the deposited data

How the results depend on the processing

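SEC61B kept its call with DESeq2 size factors, DESeq2, limma-voom and no filter, and was the only 1 of the 38 genes to pass in each. With ERCC totals 0 of the 38, 0 of the 112 and 329 of all genes passed, the median of the 38 was -0.55 and that of all genes -0.68. Among genes named by rule, these values were positive in the main test and then negative: HYOU1 -0.47, ERP44 -0.23, DNAJB9 -0.0203, MANF -0.23, XBP1 -0.48, ATF6 -0.31, ERN1 -0.37, SERP1 -0.38, SEL1L -0.32, SYVN1 -0.28, DERL2 -0.15, SEC61A1 -0.45, SEC62 -0.0444, SEC63 -0.24, ZFP36 -0.17, ZFP36L1 -0.50, PPP1R15A -0.052. The same held for PDIA3, PDIA6, DNAJB11, WFS1, HERPUD1, SEC61G, SSR1, SSR3 and SSR4, which were not named by rule. Without a filter 1194 of all genes and 14 of the 112 passed. With GC and length trends removed 7, 25 and 2055 passed (38 genes, 112 genes, all genes), with a median of 0.0573 over the 38. With the replicate number as a block 12 (10 higher and 2 lower), 47 and 4021 of 13359 (1998 higher and 2023 lower) passed, and with the block and GC and length trends removed 16 (14 higher and 2 lower), 47 and 4527 (2269 higher and 2258 lower), with a median of 0.0614. The labels state no pairing, and with 2 pairs the correlation of 0.470 between deviations under the same number settles none. In the 4 fits without 1 library, between 0 and 6 of the 38, between 1 and 24 of the 112 and between 218 and 2172 of all genes passed, and the median of the 38 ran from 0.10 to 0.14. In these fits, which assume that a lone library varies like the other clone's, HSPA5 ran from -0.1372 (without control replicate 1) to 0.073 (without control replicate 2), SDF2L1 from -0.6406 to 0.11 (the same 2 fits), and ZFP36L1 from -0.0099 (without DKO replicate 1) to 0.2597 (without DKO replicate 2). Among genes not named by rule, signs also turned without control replicate 1 (DERL1, PDIA6, SSR4, WFS1), control replicate 2 (CALR, CRELD2, HERPUD1, HSP90B1, PDIA4, SSR1), DKO replicate 1 (HERPUD1, SSR2) and DKO replicate 2 (EDEM1, PDIA6, SSR4, WFS1), and with GC and length trends removed (DNAJB11, SEC61G). The cause of these changes was not tested.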
